A study of Mus musculus with 11 samples.

Results

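The thick ascending limb (TAL) salt transport genes described here are *Umod*, *Slc12a1*, *Kcnj1*, *Bsnd*, *Casr* and *Ppp1r1b*, chosen by name for their place in the physiology of this segment, with earlier results of these data known. All 6 were found by symbol among the 28692 genes measured, and their levels were followed along the nephron in control and injured mouse kidneys. The 11 libraries came from single-cell suspensions of whole kidneys of adult mice, which the study's methods give as male C57Bl/6 animals of 10 weeks, sequenced on the 10x Chromium platform. There were 5 control libraries from naive kidneys (Ctrl, N1, N2, AN1 and AN2), 3 libraries from kidneys after unilateral ischemia-reperfusion (UIR, UIR1 and UIR2; a clamp of the left renal pedicle for 30 min) and 3 from kidneys after unilateral ureteral obstruction (UUO, UUO1 and UUO2; a permanent ligation of the left ureter), both harvested at day 28. No gene was altered in any group, the controls were not sham-operated, and the labels do not say in which run each injured library was made. The comparisons ask how the transport genes of surviving tubular cells stand in 2 kinds of long-term injury.

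The TAL reabsorbs sodium chloride without water and so dilutes the tubular fluid and builds the medullary gradient that urine concentration needs. *Slc12a1* encodes the apical Na-K-2Cl cotransporter NKCC2, the target of loop diuretics, and *Kcnj1* encodes ROMK, the apical channel that returns potassium to the lumen. Chloride leaves across the basolateral membrane with the help of barttin, a channel subunit and the product of *Bsnd*. The basolateral calcium-sensing receptor, encoded by *Casr*, restrains this transport when extracellular calcium is high, *Ppp1r1b* encodes a phosphatase inhibitor that acts under cyclic AMP signaling, and *Umod* encodes uromodulin, the most abundant protein of normal urine.

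In GRCm38 coordinates *Umod* lies at chr7:119462711-119479282 on the minus strand, *Slc12a1* at chr2:125152505-125230002 on the plus strand and *Kcnj1* at chr9:32372493-32399197 on the plus strand. *Bsnd* lies at chr4:106483456-106492283 on the minus strand, *Casr* at chr16:36493696-36562141 on the minus strand and *Ppp1r1b* at chr11:98348404-98357796 on the plus strand. The upstream sequences of *Slc12a1* and *Umod*, the cotransporter and the leading secreted product of the segment, are shown because both genes fell after injury in the comparisons that follow. They cover bases 250 to 101 before the RefSeq start, 5′ to 3′ on the gene's strand, from RefSeq on GRCm38.p6, at chr2:125152350-125152499 (plus) and chr7:119479363-119479512 (minus). The capitals mark the only match to GTTAAT, an HNF1 half-site.
Slc12a1: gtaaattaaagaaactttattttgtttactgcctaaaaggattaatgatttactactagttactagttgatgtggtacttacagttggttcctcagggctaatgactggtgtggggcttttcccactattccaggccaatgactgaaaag
Umod: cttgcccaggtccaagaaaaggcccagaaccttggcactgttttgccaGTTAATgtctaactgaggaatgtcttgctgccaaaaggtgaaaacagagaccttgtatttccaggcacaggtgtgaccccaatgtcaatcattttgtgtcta
The letters GTTAAT were searched on both strands in windows of the same 150 bases, and 4.03% of 32851 promoters held them. Of the 4 members with a promoter in the table (*Umod*, *Slc12a1*, *Kcnj1* and *Casr*), *Umod* held the match, 202 bases before its start. The *Kcnj1* window, at chr9:32393735-32393884, lies inside the gene span given above, before an internal RefSeq start. AGGTCA, a nuclear receptor half-site, occurred in 8.47% of these windows and in none of the 4 members. With 1 match in all, no match overlapped another.

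Segments were defined from clusters of cells named by marker genes that exclude the 6 members, and the UMIs of each segment were summed per library. A level is given as CPM, the UMIs of the gene per 1000000 UMIs of that pool, mitochondrial UMIs included, and segments with under 20 cells in a library gave no pool for it. The TAL held 3612 of 40493 cells. There were 140, 59, 73, 70 and 73 TAL cells in Ctrl, N1, N2, AN1 and AN2, 583, 992 and 641 in UIR, UIR1 and UIR2, and 429, 331 and 221 in UUO, UUO1 and UUO2. The pools held from 229034 UMIs in N1 to 10383149 in UIR2, so the control levels rest on fewer molecules. Of the 9 markers that named the segment, 2 overlapped the control range after injury. The magnesium pore claudin *Cldn16* stood at 128 to 204 CPM in control, 138 to 147 in UIR and 101 to 149 in UUO TAL pools, and its partner *Cldn19* at 141 to 274, 234 to 263 and 221 to 256 CPM. *Egf*, a growth factor that normal TAL cells make, stood at 5862 to 8098 CPM in control but 98.0 to 192 in UIR and 15.6 to 134 in UUO pools. The other 6 naming markers were also lower, without overlap with control: *Wfdc15b* stood at 1950 to 3621, 420 to 703 and 202 to 264 CPM in control, UIR and UUO pools, and *Tmem207* at 64.4 to 210, 15.99 to 17.0 and 1.04 to 4.44 CPM, as were *Ptger3*, *Sostdc1*, *Tmem72* and *Enox1*. The sum of the 9 was 9684 to 14176 CPM in control, 1727 to 2040 in UIR and 1198 to 1273 in UUO pools, so the label rests on lower marker levels in injured cells.

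Library quality moved with the groups. Barcodes with over 30% mitochondrial UMIs, which were left out, made up 57.0 to 78.5% of called barcodes in control, 23.5 to 37.2% in UIR and 3.13 to 7.66% in UUO libraries. Among the TAL cells kept, the median mitochondrial share was 15.6 to 25.0% in control, 10.2 to 18.3% in UIR and 7.97 to 9.0% in UUO libraries, and the median depth was 1035 to 5187, 1742.5 to 8704 and 7910 to 10997 UMIs. Free RNA was estimated at 6.71 to 16.6% of the TAL pools in control, 4.0 to 11.9% in UIR and 2.55 to 3.17% in UUO libraries. No pair of libraries shared more than 18 cell barcodes (UIR1 and UIR2, 0.328% of the smaller library).

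All 6 members were lower in the TAL of both injury models at a mitochondrial limit of 30%, and 5 of the 6 were lower after UUO than after UIR. At 15% with no minimum of cells, 2 members were called after UIR. Fold changes here and below are edgeR's, after TMM scaling between libraries. Against control in the TAL they lay lower than the ratio of mean CPM for every member. By fold the largest decline was that of *Ppp1r1b*, to 0.137 of control after UIR and 0.0607 after UUO. After UUO it was followed by *Slc12a1* at 0.207 and *Bsnd* at 0.241. *Umod* was the member that declined least after either injury, with folds of 0.633 after UIR and 0.432 after UUO. Its mean levels were 11535, 8590 and 5889 CPM in control, UIR and UUO pools. This rank did not hold with a mitochondrial limit of 50% in place of 30%. There the log2 fold changes of *Umod* (−1.23 and −1.90) lay beyond those of *Kcnj1* (−1.001 and −1.71) and *Casr* (−1.10 and −1.59). With edgeR's quasi-likelihood fit and p-values adjusted over 11507 genes by the Benjamini-Hochberg method, 15.1% of all genes were called lower and 17.8% higher after UIR, and 17.3% lower and 20.5% higher after UUO, against 6 of 6 members lower in each. Between the injuries, 1.31% of genes were lower and 1.44% higher in UUO. For each member every UIR library and every UUO library lay below every control library; 8.26% of all genes did so for UIR and 9.43% for UUO.

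*Slc12a1*, the gene of the apical cotransporter, stood at 8220, 7414, 6855, 7150 and 6166 CPM in Ctrl, N1, N2, AN1 and AN2. It stood at 3834, 3394 and 4021 CPM in UIR, UIR1 and UIR2 and at 1483, 2124 and 1650 CPM in UUO, UUO1 and UUO2. The 3 groups did not overlap. The means were 7161 ± 753 (SD, n = 5), 3750 ± 322 (n = 3) and 1752 ± 332 CPM (n = 3). The log2 fold change was −1.17 (SE 0.14, edgeR adjusted p = 6.67e-07) for UIR and −2.28 (SE 0.15, adjusted p = 2.21e-11) for UUO against control, and −1.11 (SE 0.15, adjusted p = 8.68e-05) for UUO against UIR.

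*Kcnj1*, the apical potassium channel, stood at 576, 598, 516, 462 and 437 CPM in the controls in the same order. After UIR it stood at 347, 318 and 352 CPM, and after UUO at 225, 238 and 203 CPM. Again no library of a group reached into the range of another. It fell by 0.84 on the log2 scale after UIR (SE 0.13, edgeR adjusted p = 1.7e-05) and by 1.46 after UUO (SE 0.13, adjusted p = 4.51e-09), and UUO lay 0.62 below UIR (log2 fold change −0.62, SE 0.14, adjusted p = 0.0108), a call that was lost without UUO2 (−0.54, adjusted p = 0.0937).

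*Bsnd*, the chloride channel subunit, was the member with the tightest values after UUO. The control pools held 123, 140, 123, 117 and 89.4 CPM, the UIR pools 54.6, 62.1 and 60.1 CPM and the UUO pools 32.8, 33.5 and 33.8 CPM. The 3 groups were separate from each other. The log2 fold changes were −1.23 (SE 0.13, edgeR adjusted p = 1.29e-07) for UIR and −2.05 (SE 0.14, adjusted p = 5.9e-11) for UUO against control, and −0.83 (SE 0.13, adjusted p = 0.00033) between the injuries.

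*Casr*, the calcium-sensing receptor, stood at 95.8, 91.7, 67.9, 67.8 and 68.9 CPM in control, at 44.3, 51.5 and 52.3 CPM in UIR and at 27.4, 50.7 and 33.1 CPM in UUO pools. Both injuries lay below control, but UUO1 lay inside the UIR range. *Casr* fell by 0.90 after UIR (log2 scale, SE 0.18, edgeR adjusted p = 0.000464) and by 1.32 after UUO (SE 0.19, adjusted p = 6.76e-06). The UIR call was lost with controls N1 and N2 alone (adjusted p = 0.0771) or AN1 and AN2 alone (adjusted p = 0.117). Over all alternatives the UIR value stayed between −1.10 and −0.57. *Casr* was the member for which the injuries were not told apart, with a log2 difference of −0.41 (95% interval −0.73 to −0.10, adjusted p = 0.26). Without UUO1 the difference was −0.70 (adjusted p = 0.0184).

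*Ppp1r1b*, the phosphatase inhibitor, varied most among the controls, with 151, 253, 211, 104 and 230 CPM. It stood at 38.7, 28.5 and 21.8 CPM after UIR and at 16.1, 9.81 and 13.8 CPM after UUO. The lowest control lay above the highest UIR library by a wide margin, and the lowest UIR library lay above the highest UUO library. The log2 fold change was −2.87 (SE 0.23, edgeR adjusted p = 9.57e-10) for UIR and −4.04 (SE 0.26, adjusted p = 1.68e-11) for UUO against control. UUO lay below UIR with a log2 fold change of −1.17 (SE 0.26, adjusted p = 0.00967), a call that was lost without UUO1 (−0.94, adjusted p = 0.0977).

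*Umod*, the uromodulin gene, stood at 11481, 11981, 13061, 9369 and 11786 CPM in control pools. It stood at 8317, 8763 and 8690 CPM after UIR and at 6035, 6219 and 5412 CPM after UUO. All 3 groups were separate, although AN1 was close to the UIR libraries. *Umod* fell by 0.66 on the log2 scale after UIR (SE 0.14, edgeR adjusted p = 0.000543; with TAL cells taken by a per-cell marker gate −0.31, adjusted p = 0.0948) and by 1.21 after UUO (SE 0.14, adjusted p = 1.98e-07). The difference between the injuries was −0.55 (SE 0.15, adjusted p = 0.0452), close to the threshold. It was no longer called in 9 of 11 fits that left out 1 library, though over the 11 it stayed between −0.60 and −0.48. The per-cell gate took unequal parts of the groups. It held 212 of the 583 TAL cells of UIR, 258 of 992 of UIR1 and 214 of 641 of UIR2. In control it held from 56 of 140 in Ctrl to 60 of 73 in N2.

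**Figure D1:**
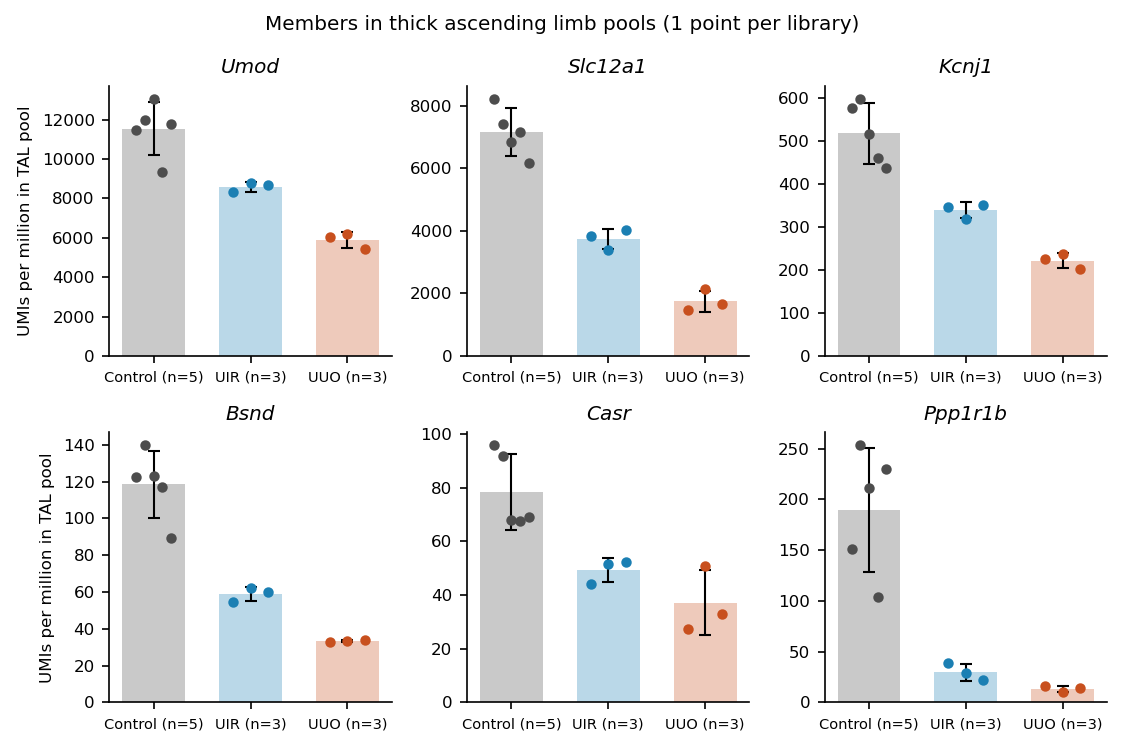
Levels of the 6 members in TAL pools, in CPM of the pool (linear axis from 0). Points are libraries, bars are group means and error bars are SD (control n = 5, UIR n = 3, UUO n = 3); every injured library lies below every control library, and UUO overlaps UIR for *Casr* alone.

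The size of these differences moved with the mitochondrial limit. Among the same TAL cells, those of at most 15% mitochondrial UMIs numbered 122 in control, 1185 in UIR and 794 in UUO libraries. The control libraries held 7 to 67 of them, some under the minimum of 20 cells used elsewhere, and 54 of the 122 were in the shallow cluster s0. In them, *Umod* stood at 6412 to 11199 CPM over the control, 7985 to 9159 over the UIR and 5073 to 6154 over the UUO libraries, so that UIR lay within the control range. *Slc12a1* stood at 4097 to 5492, 3373 to 3960 and 1394 to 2101 CPM and *Ppp1r1b* at 180 to 452, 20.7 to 34.0 and 9.5 to 14.7 CPM, with no overlap of the groups. Among TAL cells of 15 to 30%, which numbered 293, 1031 and 187, *Slc12a1* stood at 6486 to 9428 CPM in control, 3501 to 5335 in UIR and 2612 to 3614 in UUO libraries. *Umod* stood there at 9281 to 14290, 6758 to 12132 and 7583 to 10122 CPM, with overlap of all groups. *Ppp1r1b* stood at 89.2 to 226, 35.2 to 92.8 and 16.2 to 48.5 CPM, and *Bsnd* (80.3 to 146 and 60.8 to 110) and *Casr* (55.6 to 106 and 35.2 to 61.0) likewise overlapped between control and UIR. *Casr* in UUO libraries (46.3 to 60.8 CPM) overlapped control as well. When clustering was repeated with a limit of 15%, the control libraries held 5 to 19 TAL cells each. A fit on those small pools called 2 members lower after UIR, *Bsnd* (−1.01, edgeR adjusted p = 0.00316) and *Ppp1r1b* (−3.13, adjusted p = 1.13e-12), while *Umod* was at 0.06 (adjusted p = 0.912), *Slc12a1* at −0.29 (adjusted p = 0.47), *Kcnj1* at −0.27 (adjusted p = 0.409) and *Casr* at −0.57 (adjusted p = 0.267). The same fit called 5 members lower after UUO, with *Umod* at −0.51 (adjusted p = 0.164), *Slc12a1* at −1.43 and *Ppp1r1b* at −4.31. Of the 11111 genes in that fit, 643 were called lower after UIR and 759 after UUO. With a limit of 50% the declines after UIR were larger for *Umod* (−1.23) and *Slc12a1* (−1.48) and smaller for *Ppp1r1b* (−2.71). The part of mitochondrial content in the UIR result was not tested further.

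The members were carried by different cells in the 3 groups. Cluster s13 held 38.6 to 80.8% of the TAL cells of control libraries, 1.87 to 5.15% of UIR and at most 1.81% of UUO TAL cells. Cluster s1 held 2 control cells, 870 UIR and 347 UUO cells. Cluster s4, led by *Psca*, *Mt2*, *Spp1* and *Mmp7*, held no control cell, 10.4 to 13.4% of UIR and 31.2 to 40.1% of UUO TAL cells. Of the summed TAL UMIs, s13 held 91.8% in control, s1 71.4% in UIR and 42.1% in UUO, and s4 22.8% in UIR and 54.9% in UUO. At resolution 2, a TAL cluster that also had *Psca*, *Mt2*, *Spp1* and *Mmp7* among its top genes had no TAL marker among its top 10. Its naming score was 1.21 for the TAL and 0.95 for failed-repair tubular cells. Cluster s0, of 1460 shallow cells with a median of 738 UMIs, held 7.32%, 3.69% and 2.30% of the TAL UMIs of the 3 groups. It is not purely TAL by its genes in control, where its 164 cells held 4311 CPM of *Calb1* and 1133 CPM of *Slc12a3*, genes of the CNT and DCT, beside 1361 CPM of *Umod* and 1388 CPM of *Slc12a1*, against 19.8 and 14.4 CPM of *Calb1* and *Slc12a3* in s13. Its 1023 UIR cells held 479 and 176 CPM of these genes and its 273 UUO cells 50.9 and 9.54 CPM. Without s0, 6, 6 and 4 members were called for UIR and UUO against control and for UUO against UIR, where *Umod* was at −0.56 (edgeR adjusted p = 0.0506). Of all 11371 genes in that fit, 1653, 1898 and 118 were called lower in these contrasts.

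The members' levels followed these clusters closely, as a description of cells grouped by their other genes. In s13, *Slc12a1* stood at 6357 to 9183 CPM over 5 control libraries and at 6237 to 7621 CPM in the 2 UIR libraries with enough cells, and *Ppp1r1b* at 107 to 262 and 138 to 240 CPM, so that these UIR cells lay within or close to the control range. *Umod* stood at 9947 to 13950 CPM in the control and at 15135 to 17843 CPM in the UIR libraries of s13. In s1, *Umod* stood at 9491 to 10878 CPM in UIR and 9275 to 9911 in UUO libraries, whereas *Slc12a1* stood at 4464 to 4961 and 2992 to 3865 CPM. The groups thus overlapped for *Umod* but not for *Slc12a1* within the same cluster. In s4 every member was at its lowest among the deeper clusters: *Umod* stood at 3907 to 4234 CPM in UIR and 2332 to 3529 in UUO, *Slc12a1* at 702 to 1127 and 426 to 621, and *Ppp1r1b* at 4.95 to 5.37 and 2.92 to 6.11 CPM. Clusters were formed on these same cells, without the members, and no test was made between them.

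**Figure D2:**
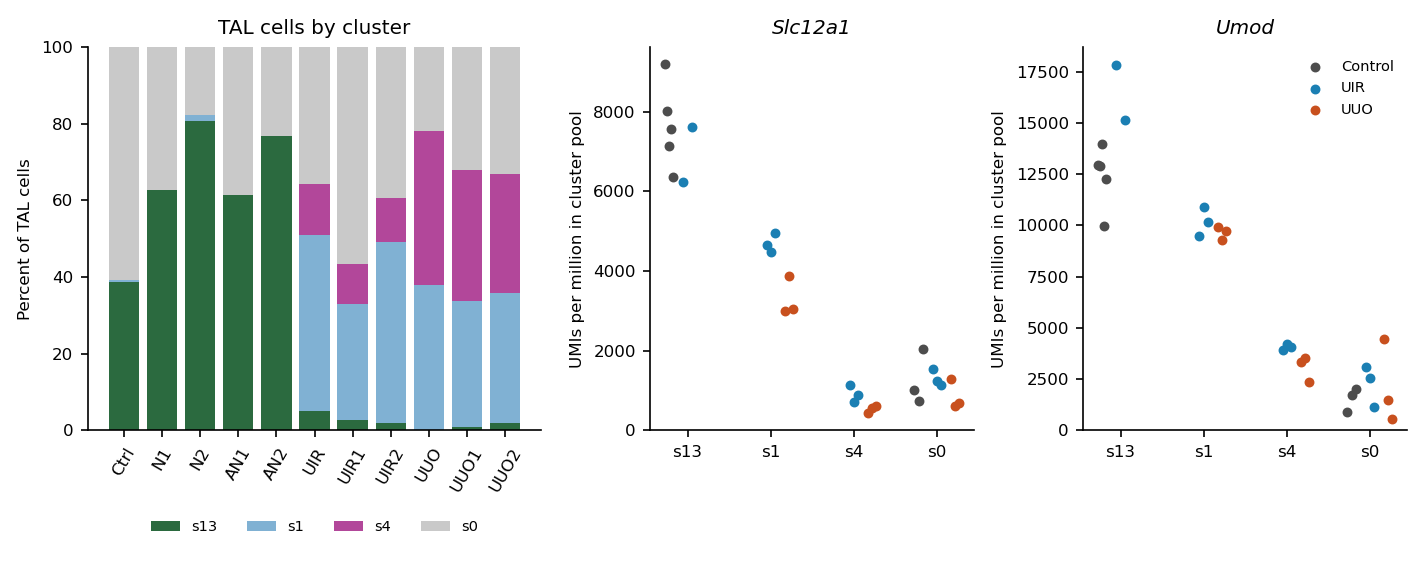
Left, percent of each library's TAL cells in clusters s13, s1, s4 and s0; middle and right, *Slc12a1* and *Umod* in CPM of each cluster's pool, with 1 point per library that has at least 20 cells. Control cells, other than 2 in s1, are in s13 and s0, cluster s4 is seen in injured libraries alone, and both genes are several times lower in s4 than in s13.

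Shares of cells with a UMI were compared after thinning each cell to 1000 UMIs, which left out 123 control, 743 UIR and 170 UUO cells; the shares include the remaining cells of s0. *Umod* was seen in 87.1 ± 9.85% (SD, n = 5) of control, 85.8 ± 2.46% (n = 3) of UIR and 75.8 ± 5.99% (n = 3) of UUO TAL cells, and both injured ranges (83.0 to 87.6% and 69.5 to 81.4%) overlapped that of control (70.7 to 95.2%). *Slc12a1* was seen in 83.7 ± 7.28%, 75.1 ± 5.47% and 53.0 ± 3.88%, with overlap of control (73.3 to 91.9%) and UIR (69.2 to 79.95%), and *Ppp1r1b* in 20.3 ± 6.36%, 3.22 ± 1.24% and 1.21 ± 1.26% of cells. Both *Umod* and *Slc12a1* were seen in 80.4%, 69.8% and 47.7% of cells, and neither in 9.62%, 8.99% and 18.9%. In macrophages, which should lack these genes, *Umod* was seen at the same depth in 6.81%, 8.28% and 3.20% and *Slc12a1* in 3.03%, 3.67% and 0.723% of cells, all well below the TAL. Without thinning, the median depths being unequal, *Umod* was seen in 77.9%, 72.3% and 76.9%, *Slc12a1* in 70.8%, 67.3% and 65.2% and *Ppp1r1b* in 39.3%, 14.8% and 9.40% of TAL cells.

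Other cells' markers in the TAL pools were summed for comparison. The 10 proximal tubule (PT) markers came to 312 to 774 CPM in control, 91.8 to 225 in UIR and 21.5 to 33.2 in UUO pools, and the 5 distal convoluted tubule (DCT) markers to 78.2 to 165, 47.6 to 70.0 and 47.5 to 73.5 CPM. The 5 connecting tubule (CNT) markers had the highest sum of another class, at 4312 to 7768, 2295 to 3263 and 1115 to 1820 CPM. Of these, *Calb1* stood at 19.8 CPM in the control cells of s13, which held 91.8% of the control TAL UMIs, and at 4311 CPM in those of s0. The other CNT markers were not followed by cluster, and whether TAL cells made them was not tested. The 5 markers of failed-repair tubular cells (frTECs) came to 60.4 to 125, 385 to 497 and 471 to 617 CPM, and the 4 macrophage markers to 0 to 7.66, 29.97 to 64.9 and 39.9 to 47.0 CPM, with 1 to 4 of the 4 at 0 in control and none in injured pools. These sums moved with injury beside the members, and their part in the result was not tested. The members stayed lower in both injuries when the estimated free RNA was subtracted, with 6, 6 and 4 members called for UIR against control, UUO against control and UUO against UIR. Of all 11336 genes in that fit, 1671, 1895 and 64 were called lower in the same contrasts.

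Along the nephron, each member had its own distribution, given here as a description. *Umod* was highest in the TAL in every group and next in the DCT in control, with 11535 and 1838 CPM. It stood at means of 49.7 CPM in the PT, 75.8 in the CNT and 149 in intercalated cells, near the 73.8 CPM of macrophages, at a median of 29.3 CPM in principal cells (mean 104, with N2 at 421) and at 246 CPM in the thin limb of 1 control library. *Slc12a1* was likewise highest in the TAL, at 7161 CPM in control against a median of 13.97 CPM in principal cells (mean 77.8, with N2 at 340) and 31.4 CPM in macrophages. *Casr* and *Ppp1r1b* were also highest in the control TAL, at 78.4 and 190 CPM, against 22.6 and 24.7 CPM in the DCT, and *Ppp1r1b* stood at 91.1 CPM in the thin limb of 1 control library. *Kcnj1* had another order: control principal cells of the collecting duct held 752 CPM, the DCT 660, the CNT 521 and the TAL 518 CPM, neighbors in this order overlapping, whereas intercalated cells held 140 and the PT 3.91 CPM. *Bsnd* was shared among intercalated cells (122 CPM), the TAL (118), the DCT (88.9) and the CNT (70.1), again with overlap between neighbors, and stood at 6.02 CPM in principal cells.

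After injury the order of *Kcnj1* changed. In UIR libraries it was the DCT (525 CPM), the CNT (469), principal cells (344) and the TAL (339), principal cells and the TAL overlapping. In UUO libraries it was the DCT (300 CPM), the TAL (222), the CNT (172) and principal cells (86.4), the TAL and CNT overlapping. Principal cells, the highest of these segments in control, were below the other 3 after UUO. For *Umod*, *Slc12a1* and *Casr* the TAL stayed highest in every group, without overlap with the next segment. *Ppp1r1b* in the thin limb, at 10.6 to 39.4 CPM in UIR and 0 to 19.8 CPM in 2 UUO libraries, overlapped the TAL.

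**Figure D3:**
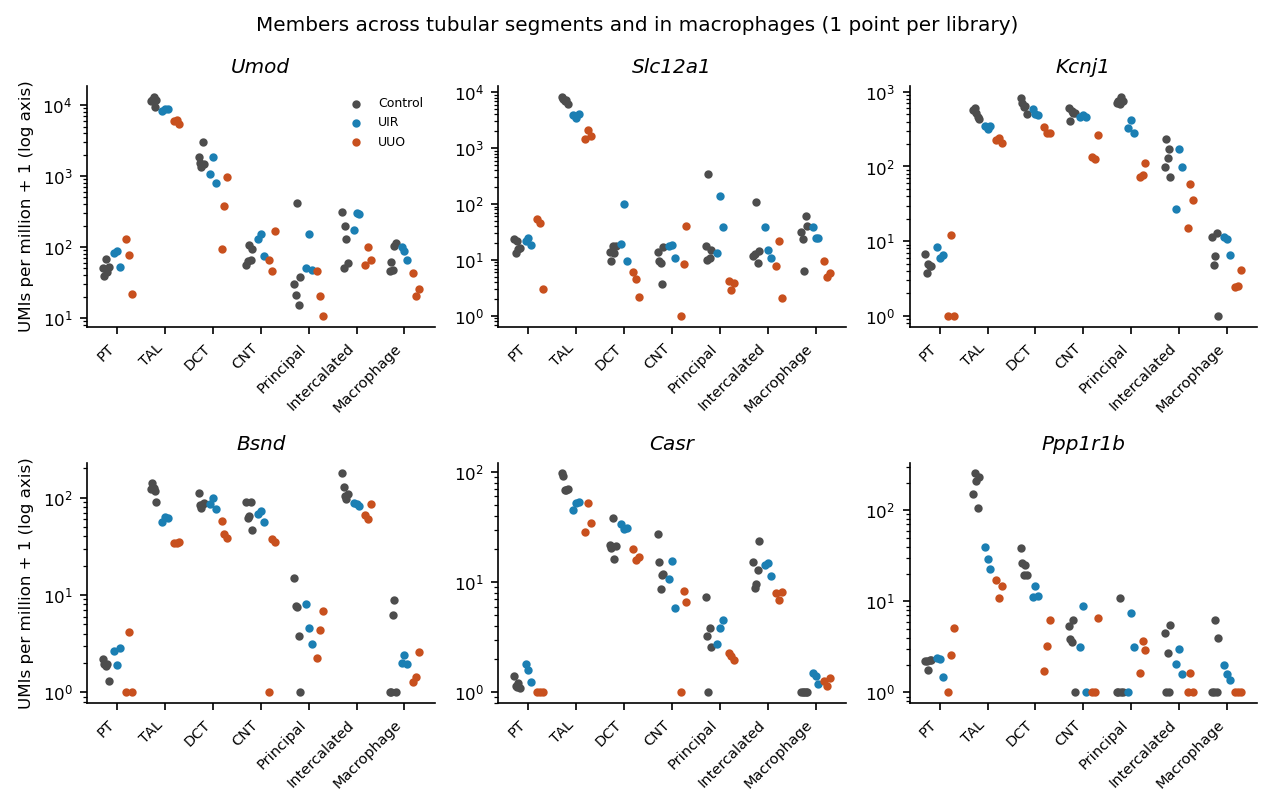
Levels of the 6 members by segment and in macrophages, as CPM plus 1 on a log axis, with 1 point per library. Among the segments drawn, *Umod*, *Slc12a1*, *Casr* and *Ppp1r1b* are highest in the TAL in all groups, while *Kcnj1* and *Bsnd* are spread over several distal segments; library N2 is the high control point for *Umod* and *Slc12a1* in principal cells.

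In the DCT, which reabsorbs sodium chloride through the thiazide-sensitive cotransporter, *Kcnj1* and *Ppp1r1b* fell after UIR, and all 6 members were called lower after UUO. In the edgeR test over 10143 genes, 16.4% of genes were lower after UIR, 21.4% after UUO and 3% in UUO against UIR, and the members called numbered 2, 6 and 5 of 6. *Kcnj1* stood at 818, 707, 633, 636 and 507 CPM in Ctrl, N1, N2, AN1 and AN2, at 583, 498 and 494 CPM after UIR and at 341, 279 and 279 CPM after UUO. UIR overlapped control, through AN2 and the library UIR, and UUO lay below both. Its log2 fold change was −0.69 (SE 0.15, edgeR adjusted p = 0.000877) for UIR and −1.57 (SE 0.16, adjusted p = 1.43e-08) for UUO. With a mitochondrial limit of 50% the UIR value was −0.09 (adjusted p = 0.882).

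*Umod* in the DCT stood at 1859, 1539, 1331, 2990 and 1472 CPM in control, 1058, 1836 and 802 CPM in UIR and 91.5, 375 and 966 CPM in UUO. The UUO libraries spread over a wide range yet lay below every control. The log2 fold change was −2.37 for UUO (SE 0.44, edgeR adjusted p = 0.000103) and −0.92 for UIR (SE 0.41, adjusted p = 0.0862). *Bsnd* was at −1.45 (adjusted p = 3.86e-07), *Casr* at −0.91 (adjusted p = 0.00642) and *Ppp1r1b* at −3.58 (adjusted p = 9.69e-08) after UUO. *Slc12a1*, at 8.38 to 16.8 CPM in control DCT pools and so below the macrophage mean, was at −2.49 (adjusted p = 0.0256; without N2 −2.43, adjusted p = 0.0594), and the part of free RNA in it was not tested.

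*Bsnd* was at −0.43 after UIR (edgeR adjusted p = 0.0506), and without N2 at −0.48 (adjusted p = 0.0425). Its CPM levels nonetheless overlapped, at 76.6 to 111 in control (mean 88.9) and 76.3 to 97.0 in UIR DCT pools (mean 86.1). The cells behind these DCT values also differed, since cluster s16 held 246 control, 29 UIR and 10 UUO cells and cluster s6 held 0, 279 and 224. With a mitochondrial limit of 50% there was no UUO pool for the DCT, and the UIR calls ended, with *Kcnj1* at −0.09 (adjusted p = 0.882) and *Ppp1r1b* at 0.38 (adjusted p = 0.608).

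In principal cells, where ROMK secretes potassium into the urine, *Kcnj1* fell after both injuries. It stood at 715, 755, 680, 852 and 756 CPM in Ctrl, N1, N2, AN1 and AN2. It stood at 328, 424 and 281 CPM after UIR and at 70.9, 76.8 and 112 CPM after UUO, with no overlap of the 3 groups. The log2 fold change was −1.19 (SE 0.17, edgeR adjusted p = 6.41e-05; with a mitochondrial limit of 50% −0.58, adjusted p = 0.00836) for UIR, −3.23 (SE 0.19, adjusted p = 5.32e-10) for UUO and −2.03 (SE 0.19, adjusted p = 5.71e-06) for UUO against UIR. In the 9731 genes tested, 7.36% were lower after UIR, 15.9% after UUO and 2.11% between the injuries. Cluster s10 held 225 control, 143 UIR and 13 UUO principal cells, s12 held 1, 122 and 211, and s24 held 4, 28 and 58.

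*Slc12a1* was also called lower in principal cells after UUO (−4.55, edgeR adjusted p = 0.0132), but this rested on N2. That library held 340 CPM of *Slc12a1* and 421 CPM of *Umod* in its principal cells, against 8.94 to 16.6 and 14.2 to 37.3 CPM in the other controls. Without N2 the *Slc12a1* value was −2.38 (adjusted p = 0.0719), and *Umod* and *Slc12a1* were then called higher after UIR (1.64, adjusted p = 0.029, and 2.28, adjusted p = 0.0161) and lower in UUO than in UIR (−1.73, adjusted p = 0.0458, and −4.66, adjusted p = 0.00118). With N2 kept and a mitochondrial limit of 50%, both were also called higher after UIR (1.24, adjusted p = 0.00538, and 2.35, adjusted p = 4.12e-05). UIR1, with 151 and 139 CPM, was the highest of the UIR libraries and the one above the UIR macrophage range for both genes (65.2 to 101 and 23.6 to 37.8 CPM).

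In the CNT, *Kcnj1* and *Bsnd* fell after UUO and neither was called after UIR. Of 6018 genes tested, 5.53% were lower after UIR, 12.8% after UUO and 5.80% between the injuries, and 0, 2 and 2 of the 3 members that passed the filter on low counts were called. After UIR, 2 of the 3 had an unadjusted p under 0.05, a count that takes either direction and so is not a count of declines. *Umod*, the other member tested, had a higher mean in UIR than in control CNT pools. It stood at 119 CPM (74.7 to 154) in UIR and 75.8 CPM (54.7 to 106) in control, with overlap. Without N2 the log2 fold change of *Umod* after UIR was 0.69 (edgeR adjusted p = 0.0733). *Kcnj1* stood at 605, 404, 556, 523 and 518 CPM in Ctrl, N1, N2, AN1 and AN2, at 456, 485 and 465 CPM after UIR and at 131, 126 and 259 CPM after UUO. UIR lay within the control range and UUO below it. The log2 fold change for UUO was −1.89 (SE 0.22, edgeR adjusted p = 1.14e-08), and for UIR −0.37 (95% interval −0.68 to −0.07, adjusted p = 0.139). *Bsnd* was at −1.64 after UUO (SE 0.41, adjusted p = 0.00247), with 1 UUO library at 0. Its difference between the injuries (−1.30, adjusted p = 0.0467) was as large but not called without N2 (−1.30, adjusted p = 0.0516). Cluster s18 held 115 control, 108 UIR and 6 UUO cells of the CNT, and the shallower s2, with a median of 1246 UMIs, held 224, 247 and 164.

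In intercalated cells, which secrete acid or base, *Bsnd* fell in both models. It stood at 176, 126, 103, 96.5 and 107 CPM in control, 87.3, 85.6 and 80.6 CPM in UIR and 66.0, 59.6 and 85.6 CPM in UUO libraries. Both injuries lay below control and overlapped each other. The log2 fold change was −0.78 (SE 0.18, edgeR adjusted p = 0.00506) for UIR and −1.13 (SE 0.19, adjusted p = 0.000138) for UUO. Of 8948 genes, 7.32% were lower after UIR, 13.5% after UUO and 0.581% between the injuries, and 1, 4 and 1 of the 5 members tested were called. After UUO these were also *Kcnj1* (−2.17, adjusted p = 0.00191), *Casr* (−1.38, adjusted p = 0.00937) and *Umod* (−1.32, adjusted p = 0.0195; without N2 −1.20, adjusted p = 0.0534). Cluster s7 held 151 control, 224 UIR and 47 UUO intercalated cells, s9 held 44, 181 and 162, s20 held 56, 103 and 13, and s25 held 0, 35 and 47. *Umod*, at 49.4 to 314 CPM in control intercalated cells, overlapped the 44.6 to 114 CPM of macrophages. In UUO libraries it stood at 55.6 to 99.5 CPM in intercalated cells. Macrophage *Umod* was lower after UUO as well, with means of 73.8, 84.6 and 29.0 CPM in control, UIR and UUO libraries. The part of free RNA in the *Umod* call was not tested.

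In the PT, *Umod* and *Slc12a1* stood below the macrophage mean in control (49.7 and 17.0 CPM) and UIR libraries (73.2 and 20.6 CPM), and at 75.3 ± 54.5 and 33.0 ± 27.0 CPM (SD, n = 3) in the small UUO pools. With edgeR over 11605 genes, 11% were called in either direction after UIR and 5.63% after UUO. Of the 4 members tested there, 0 were called in either model, and 1 after UIR and 0 after UUO had an unadjusted p under 0.05. Without N2, *Umod* was called higher there after UIR (0.71, adjusted p = 0.0165). The thin limb gave a pool in 1 control library, so no test was made; *Umod* stood there at 246 CPM, against 272 to 1087 CPM in UIR and 697 to 731 CPM in 2 UUO libraries. The frTEC cluster gave no control pool, and its *Umod* stood at 46.3 to 219 CPM in UIR and 13.3 to 20.8 CPM in UUO libraries.

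**Figure D4:**
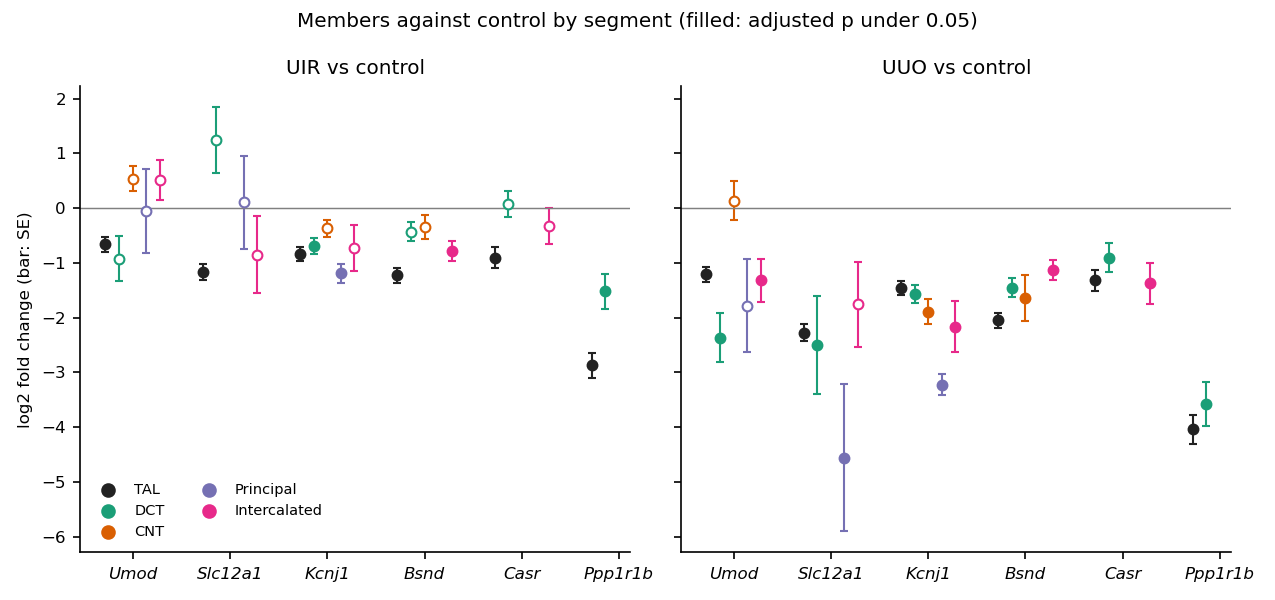
Log2 fold change of each member against control by segment after UIR (left) and UUO (right), with SE; filled points have an edgeR adjusted p under 0.05. The TAL values (black) are filled and below 0 for all 6 members in both panels, and after UUO *Kcnj1* is filled and below 0 in all 5 segments shown.

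Genes that work with the members in the TAL were described from lists of transport partners, regulators and transcription factors. Of 10 transport partners tested, 5 fell and 1 rose after UIR, and 6 fell and none rose after UUO, with medians of −0.42 and −0.67 (log2), beside 0.07 and 0.06 over all genes, of which 15.1% and 17.3% fell. *Kcnj10*, a basolateral potassium channel subunit, stood at 54.8 to 114 CPM in control, 18.3 to 22.6 in UIR and 3.15 to 12.8 in UUO pools. It was at −2.34 (edgeR adjusted p = 9.36e-08) and −3.75 (adjusted p = 3.35e-10) and was the partner called between the injuries (−1.41, adjusted p = 0.00313). The anion exchanger gene *Slc4a2* fell after UIR (−0.48, edgeR adjusted p = 0.0271) and UUO (−0.63, adjusted p = 0.00416). *Fxyd2* fell after UUO (−0.71, adjusted p = 0.00142) and was at −0.11 after UIR (adjusted p = 0.667). *Atp1b1* (−0.84 and −1.17) fell in both models, as did *Slc9a3*, a sodium-proton exchanger (−3.66 and −3.99) that PT cells also express and whose change was not separated from the fall of PT markers in these pools. *Cldn10*, a claudin of the sodium-selective paracellular path, rose after UIR (0.58, adjusted p = 0.0228) and was at −0.11 after UUO (adjusted p = 0.697).

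Of 20 regulators tested, 6 fell and 3 rose after UIR, and 8 fell and 3 rose after UUO, with medians of −0.22 and −0.33, where 15.1% of all genes fell and 17.8% rose after UIR and 17.3% and 20.5% after UUO. *Wnk1* is a kinase of the WNK pathway, which sets the phosphorylation of NKCC2 and its relatives. It stood at 633 to 1203 CPM in control, 129 to 197 in UIR and 96.8 to 142 in UUO pools. It was at −2.69 (edgeR adjusted p = 3.19e-10) and −3.17 (adjusted p = 2.11e-11). DCT and CNT cells also express *Wnk1*, and its change was not separated from the fall of their markers in these pools. *Klhl3*, an adaptor that targets WNK kinases for degradation, was at −2.13 and −2.71 and *Wnk4* at −1.29 and −1.93, and *Wnk4* was also lower in UUO than in UIR (−0.64, adjusted p = 0.0356). *Pth1r*, the parathyroid hormone receptor, fell by 1.06 and 1.38. Among the genes that rose were *Maged2*, whose loss causes transient antenatal Bartter syndrome (1.41 and 1.24), *Stx3*, an apical syntaxin (0.77 and 0.72), and *Mal*, an apical sorting protein (0.73 and 0.55).

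Of 14 transcription factors and coactivators, 5 fell and 3 rose after UIR and 8 fell and 3 rose after UUO, with medians of −0.16 and −0.49, beside the same shares of all genes. *Esrrb*, an orphan nuclear receptor, fell from 25.5 to 65.5 CPM in control to 5.89 to 6.45 CPM in UIR and 4.45 to 5.87 CPM in UUO pools (−2.94, edgeR adjusted p = 3.27e-09, and −3.16, adjusted p = 1.96e-09). Its relative *Esrrg* (−1.17 and −1.55), the mitochondrial coactivator *Ppargc1a* (−1.33 and −1.50) and *Mecom* (−0.65 and −0.99) fell as well. *Pax8* and *Pax2*, nephron lineage factors, rose, *Pax8* from 13.1 to 65.2 CPM in control to 133 to 165 in UIR and 204 to 227 in UUO pools (1.78 and 2.31) and *Pax2* by 0.92 and 0.54, and *Foxc1* was at 1.08 and 1.02. *Tfap2b* was lower in UUO than in UIR (−0.54, adjusted p = 0.0343) and not called after UIR (−0.19, adjusted p = 0.294).

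**Figure D5:**
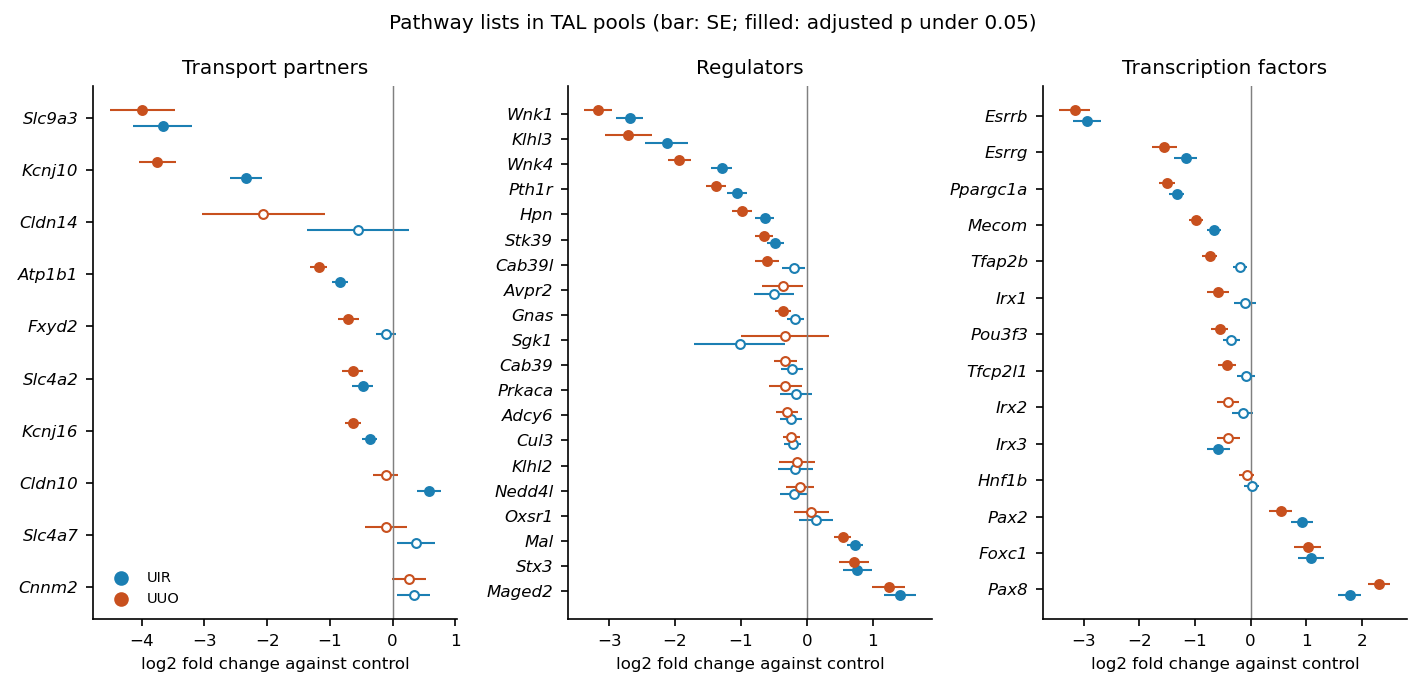
Log2 fold change of each listed gene in TAL pools against control, with SE, for UIR (blue) and UUO (orange); filled points have an edgeR adjusted p under 0.05. Transport partners lie mostly below 0, whereas *Maged2*, *Stx3*, *Mal*, *Pax8*, *Foxc1* and *Pax2* are filled and above 0 in both models.

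Genes whose pattern was most like that of a member were ranked by Pearson correlation of log levels over the 78 pools of segments and libraries, among 9988 genes; the pools share libraries and depth, and r is given as a description. *Kcnj1* was most like *Nudt4* (r = 0.946), *Tfap2b* (0.936) and *Kcnj10* (0.926). *Bsnd* was most like *Tmem72* (0.919), *Gcgr* (0.908) and *Klk1* (0.907), and *Casr* like *Scn4b* (0.897), *Tmem72* (0.896) and *Bsnd* (0.881). *Slc12a1* was most like *Enox1* (0.884), *Pla1a* (0.874) and *Tmem207* (0.835). *Umod* and *Ppp1r1b* were among each other's 3 nearest genes (0.804), *Umod* together with *Prox1* and *Stk32b* (both 0.822) and *Ppp1r1b* with *Tarm1* (0.774) and *Pla1a* (0.762). *Tmem72*, *Klk1*, *Enox1* and *Tmem207* are among the markers that named the segments.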

How the data were processed

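Libraries were made from single-cell suspensions of whole mouse kidney (10x Chromium), and the authors deposited raw UMI counts per gene and barcode, empty droplets included, from Cell Ranger 3.1.0 per the file headers and the submitters' processing notes on mm10 (GRCm38). These counts carry no correction for free RNA or doublets. Cells were called against each library's empty droplets (at least 500 UMIs, adjusted p 0.01 from 10000 simulations), and barcodes over 30% mitochondrial or 5% hemoglobin UMIs, under 200 genes, or among the 7.5% of a library with the highest doublet score were left out. Clusters (2000 variable genes without the members, the listed genes and the markers, 40 components, 20 neighbors, Leiden resolution 1) were named by the marker set with the highest mean score. Tubular cells outside the PT, and cells of clusters without a name, were then clustered and named again with newly chosen variable genes and 30 components. Clusters whose labels start with s come from this later round.

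UMIs were summed per library and segment, with at least 20 cells, and tested with edgeR 4.0.16 (R 4.3.3; filterByExpr, TMM, quasi-likelihood, 3 groups in 1 model) at a Benjamini-Hochberg adjusted p under 0.05 over all genes tested in the segment. The study's methods give 3 mice per injury model for this platform and 5 naive controls, as many as the libraries; the labels do not tie libraries to mice, and p-values measure the spread between libraries. On simulated data with 200 changed genes of 11341, for UIR against control in the TAL, 191 were recovered and 4.975% of calls were false. These counts had the same dispersion (0.05) for all genes and no group difference in mitochondrial share, free RNA or clusters. The rate therefore does not measure the error of the real calls. Totals were 49503312 to 117043590 UMIs per library.

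The members and gene lists were chosen with earlier results of these data known, and some genes of the transport list are not reported here and were left out of its counts. The 6 members were always named, with up to 4 genes per list, direction and contrast that had the largest change among those called, and the 3 genes most correlated with each member among those of at least 20 CPM in a segment. Alternatives were other size factors (RLE), DESeq2 1.42.0, no filter on low counts, mitochondrial limits of 15% and 50%, cells of at least 1000 UMIs, resolution 2, a per-cell marker gate (at least 3 UMIs), subtraction of free RNA, doublets kept, controls of 1 label, a replicate block and each library left out; 3 were chosen after seeing the data (TAL without its shallow cluster, the other segments without N2, and the 15% limit with no minimum of cells).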

Additional observations from a re-analysis of the deposited data

Results flagged for a closer look

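Control library N2 stood apart from the other 4 controls by Dixon's test in 6 of 36 groups of control values examined, where chance gives about 1 in 20. In principal cells it held 421 CPM of *Umod*, 340 CPM of *Slc12a1* and 9.80 CPM of *Ppp1r1b* (3 UMIs, against 0 in the other 4), each above the other controls. It was also the high library for *Slc12a1* in intercalated cells (106 CPM) and for *Casr* in the DCT (37.3 CPM), and the low one for *Ppp1r1b* in the PT (0.76 CPM). Calls that changed without N2 are given beside the results of each segment.

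The 2 injuries differed, by the edgeR test of UUO against UIR in the same model (adjusted p under 0.05), for 5 members in the TAL, with log2 fold changes of −0.55 for *Umod*, −1.11 for *Slc12a1*, −0.62 for *Kcnj1*, −0.83 for *Bsnd* and −1.17 for *Ppp1r1b*. In the DCT they differed for *Slc12a1* (−3.74), *Kcnj1* (−0.88), *Bsnd* (−1.02), *Casr* (−0.99) and *Ppp1r1b* (−2.06). *Slc12a1* in the DCT rested on a UIR range of 8.61 to 101 CPM with UIR1 as its high library. They differed in the CNT for *Kcnj1* (−1.52) and *Bsnd* (−1.30), in principal cells for *Kcnj1* (−2.03) and in intercalated cells for *Umod* (−1.84; −0.59, adjusted p = 0.533, with a mitochondrial limit of 50%). All of these were lower after UUO. Macrophage *Umod* was also lower, with means of 84.6 CPM in UIR and 29.0 CPM in UUO libraries. The mitochondrial share, the depth, the free RNA and the clusters that held the cells also differed between the injuries, and their part was not tested.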

How the results depend on the processing

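Of 150 values of the members in the TAL over 25 alternatives, 149 stayed below 0 for UIR against control, with 143 on the same side of the threshold, 6 no longer past it and 1 reversed. For UUO against control all 150 stayed below 0 and 1 was lost. For UUO against UIR all 156 values over 26 alternatives stayed below 0, with 20 calls lost, 17 of them for *Umod*, and 1 gained. With a mitochondrial limit of 15% and no minimum of cells, 2 members were called for UIR against control and 3 for UUO against UIR, and *Umod* reversed to 0.059 (edgeR adjusted p = 0.912); with the minimum of 20 cells no control pool was left and this alternative was not run against control. With a limit of 50%, *Ppp1r1b* in the DCT reversed to 0.38 for UIR (adjusted p = 0.608), and 7 members were called in the other segments for UUO, against 14, but no UUO pool was left for the DCT and CNT, which hold 8 of the 14, and 1 for principal cells; in principal and intercalated cells alone the numbers were 7 and 6. The control library N2 decided calls there: without it 8 were called for UIR, against 4, and 11 for UUO. Leaving out each library in turn kept 6 members called against control and left 3 to 5 for UUO against UIR (3 without UUO2). *Umod* for UIR was at −0.31 with the per-cell gate (adjusted p = 0.0948). The *Casr* call for UIR was lost with controls of label N (adjusted p = 0.0771) or AN (adjusted p = 0.117), its value staying between −1.10 and −0.57 over all alternatives. Without thinning, shares of cells moved to 72.3% for *Umod* in UIR, 70.8%, 67.3% and 65.2% for *Slc12a1* and 39.3%, 14.8% and 9.40% for *Ppp1r1b* in control, UIR and UUO. The cause of these changes was not tested.

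Genes called in the TAL numbered 3782 for UIR and 4346 for UUO against control, but 2016 and 2529 with controls N, 2048 and 2631 with controls AN and 1546 and 1864 at 15% with no minimum, each with fewer control libraries or cells. For UUO against UIR the number was 317, against 602 without the filter on low counts, 493 at a limit of 50%, 163 at 15%, 140 with the per-cell gate, 206 with free RNA subtracted and 193 without UUO2; lower calls were 47.6% of the 317 and 31.1% of the 206. The median log2 fold change of all genes, 0.07 and 0.06 for UIR and UUO against control, was 0.25 and 0.17 without the filter, 0.17 for both with controls N, 0.13 and 0.14 with controls AN and 0.28 for both at 15% with no minimum. With the replicate block, 523 genes were called for UUO against UIR, against 317, and the same number of members. Deviations of the UIR and UUO libraries with the same number correlated at 0.0498 for number 1 and 0.0676 for number 2. Those of the unnumbered pair correlated at 0.434, so these 2 libraries deviated in part together. Whether they shared a run is not in the labels and was not tested. The control pools, of 229034 to 636618 UMIs, limit the precision of the scarcer members.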
